A study of Mus musculus with 10 samples.

Results

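Cells obtain cholesterol by synthesis and by uptake, and 8 genes of the synthesis route and its control were examined in the colon of mice with dextran sulfate sodium (DSS) colitis. They were chosen by symbol, as *Hmgcs1*, *Idi1*, *Fdft1*, *Sqle*, *Lss*, *Dhcr7*, *Insig1* and *Srebf2*, out of 56691 genes in the deposited table. All 8 were in the table and all 8 had enough counts to be tested, among 16545 genes that did. The set holds 6 enzymes and 2 regulators but no uptake receptor, so uptake genes were taken from a separate list.

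RNA was sequenced from colon tissue of 10 male C57/BL6 mice, 8 weeks old when obtained, in 2 groups of 5. Both groups drank 3% DSS for 7 days, an agent that injures the colon epithelium and serves as a chemical model of ulcerative colitis. The study's methods list no further agent for the DSS group (DSS-1 to DSS-5). The ceAF group (ceAF-1 to ceAF-5) was then given 15 mL/kg of chick early amniotic fluid (ceAF) by gavage for 10 days, to ask what this fluid does to the injured colon. The study's untreated mice and those given mesalazine are outside the comparison. Gene counts summed to 16275884 to 19901549 in the mice of the DSS group and 14676471 to 18811795 in those of the ceAF group. That each sample is a separate mouse rests on the labels, which number the samples, so p-values measure the spread between these samples. Every member had at least 285 counts in every mouse.

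In the cholesterol pathway, acetyl units are joined to mevalonate, mevalonate is turned into isoprene units that are joined to squalene, and squalene is closed into a sterol ring and trimmed to cholesterol. When membrane cholesterol is low, the escort protein SCAP carries SREBP2 from the endoplasmic reticulum to the Golgi, where it is cleaved and released to switch on genes of synthesis and uptake. When sterols are plentiful, INSIG proteins hold SCAP back. The gut epithelium both makes and absorbs cholesterol, and its renewal from dividing crypt cells requires membrane.

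The tissue label was checked first. The 13 epithelium markers were all tested and their summed level was 18003, 19644, 18888, 22635 and 14902 CPM in DSS-1 to DSS-5 and 20615, 20987, 20339, 17905 and 18556 CPM in ceAF-1 to ceAF-5, where CPM is a gene's count scaled to the library size after TMM normalization. *Krt8*, a keratin of simple epithelium, was the most abundant of them, at 3047 to 5107 CPM, and none of the 13 was at 0 in all mice. In bulk tissue, fewer cells of a type and less RNA per cell cannot be told apart.

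Some libraries stood apart from the rest over all genes. Principal component 1 held 30.8% of the variance and placed ceAF-1 at 93.5, against −45.5 to 16.0 for the other 9 mice. On principal component 2, with 19.4% of the variance, DSS-1 (60.3) and DSS-5 (−45.8) were the extremes. Results are therefore also given without ceAF-1, DSS-1 or DSS-5 where they rest on them.

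No difference between the groups was detected in any of the 8 members, whereas 6 of the 8 varied together from mouse to mouse, *Idi1* among them mainly through the most distant mice. The 6 were picked from the correlations in these same data. Without the most distant mice *Dhcr7*, outside the 6, was about as like the other members as *Idi1*. A gene was called where edgeR's quasi-likelihood test gave a Benjamini-Hochberg adjusted p under 0.05 and the log2 fold change was 1 or more in size. By this rule 0 of the 8 members were called, and 0% of all genes tested. DESeq2 called 25 genes and limma-trend on log2(FPKM + 1) 0 at the same limits, and none of those 25 was a member. At an unadjusted p under 0.05 there were also 0 of 8 members, against 6.93% of all genes tested, or 1146 genes. Lower in the ceAF group at that level were 0 members and 3.67% of all genes, and higher were 0 members and 3.26%. The count over all genes was 712 without DSS-1 (321 lower and 391 higher) and 1872 without ceAF-1 (997 and 875), and 1009 with limma-trend on log2(FPKM + 1) (701 and 308), with 0 members in each case. Non-overlapping values of the 2 groups were found in 0 of the 8 members and in 1.24% of all genes tested. The median log2 fold change of the 8 was −0.13, with 6 lower and 2 higher, beside 0.0076 over all genes tested, of which 48.6% were lower. Without ceAF-1 this median was 0.0068, so its sign rested on that mouse, and without DSS-1 or DSS-5 it was −0.19 and −0.10.

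**Figure D1:**
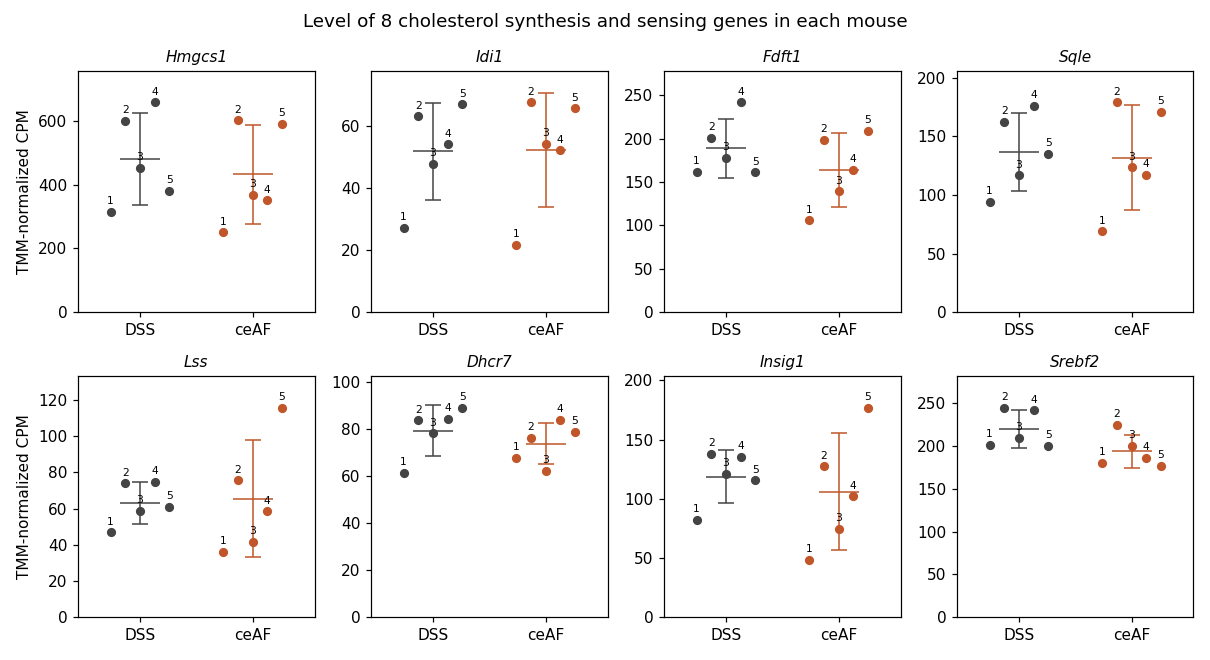
Level of each of the 8 genes in TMM-normalized CPM (vertical axis, from 0), with 1 point per mouse, numbered by its label, in the DSS and ceAF groups. Horizontal marks are group means and bars are SD (n = 5 mice each). The groups overlapped in every panel, and ceAF-1 was the lowest of all mice in 6 of the 8 genes.

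The early steps were represented by *Hmgcs1* and *Idi1*. *Hmgcs1* encodes the cytosolic synthase that makes HMG-CoA, the precursor of mevalonate (ENSMUSG00000093930, chromosome 13, 120151915 to 120169796, forward strand; positions are as deposited, and the build is not given in the sources used here). *Hmgcs1* stood at 316, 600.1, 454, 659 and 382 CPM in DSS-1 to DSS-5 and 250.2, 602, 368, 351 and 592 CPM in ceAF-1 to ceAF-5. DSS-4, ceAF-2, DSS-2 and ceAF-5 formed the upper end and ceAF-1 and DSS-1 the lower end, so the groups overlapped over most of their range. The means were 482 ± 145 CPM over the 5 DSS mice and 433 ± 157 CPM over the 5 ceAF mice (mean ± SD). The log2 fold change was −0.16 (standard error 0.275, 95% confidence interval −0.76 to 0.45), with an adjusted p of 0.947 in edgeR's quasi-likelihood test and an exact permutation p of 0.556. Without ceAF-1 it was −0.011.

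*Idi1* encodes the isomerase that interconverts the 2 isoprene units (ENSMUSG00000058258, chromosome 13, 8935537 to 8942487, forward strand). *Idi1* stood at 27.3, 63.3, 47.8, 54.2 and 67.1 CPM in DSS-1 to DSS-5 and 21.7, 67.8, 54.4, 52.3 and 65.9 CPM in ceAF-1 to ceAF-5. ceAF-1 and DSS-1 lay far below all other mice, which ranged from 47.8 to 67.8 CPM, and the groups overlapped. The log2 fold change was 0.014 (standard error 0.305, 95% confidence interval −0.66 to 0.68), and the difference of mean log2 CPM was −0.024, of the opposite sign. The adjusted p was 0.996 in edgeR's quasi-likelihood test, and the exact permutation p was 0.937. Leaving out ceAF-1 gave a log2 fold change of 0.21. The sign turned negative without DSS-1 (−0.14), DSS-3 (−0.0064), ceAF-2 (−0.081) or ceAF-5 (−0.081).

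At the squalene steps, *Fdft1* encodes squalene synthase, the first enzyme committed to sterols (ENSMUSG00000021273, chromosome 14, 63382599 to 63417027, reverse strand). *Fdft1* stood at 162, 201, 178, 242 and 161 CPM in DSS-1 to DSS-5 and 106, 199, 139, 164 and 209 CPM in ceAF-1 to ceAF-5. DSS-4 was highest and ceAF-1 lowest, and 3 of the 5 ceAF mice lay within the range of the DSS mice, with ceAF-1 and ceAF-3 below it. The means were 189 ± 33.8 CPM over the 5 DSS mice and 164 ± 42.6 CPM over the 5 ceAF mice (mean ± SD), and the log2 fold change was −0.21 (standard error 0.190). Its 95% confidence interval was −0.63 to 0.21, the adjusted p was 0.869 in edgeR's quasi-likelihood test, and the exact permutation p was 0.333. Without ceAF-1 the log2 fold change was −0.085.

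*Sqle* encodes squalene epoxidase, an oxygen-dependent and regulated step (ENSMUSG00000022351, chromosome 15, 59186926 to 59203041, forward strand). *Sqle* stood at 94.3, 162, 117, 176 and 135 CPM in DSS-1 to DSS-5 and 69.0, 179, 124, 117 and 171 CPM in ceAF-1 to ceAF-5. The highest and the lowest of all mice were both in the ceAF group, ceAF-2 and ceAF-1. The log2 fold change was −0.054 (standard error 0.252, 95% confidence interval −0.61 to 0.50), with an adjusted p of 0.982 in edgeR's quasi-likelihood test. The exact permutation p was 0.762. The sign changed when ceAF-1 was left out (0.11) and also without DSS-2 (0.024) or DSS-4 (0.053).

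Ring closure and the final reduction were represented by *Lss* and *Dhcr7*. *Lss* encodes lanosterol synthase, which closes the ring (ENSMUSG00000033105, chromosome 10, 76367422 to 76392972, forward strand). *Lss* stood at 46.8, 74.0, 58.9, 74.9 and 61.0 CPM in DSS-1 to DSS-5 and 36.0, 75.6, 41.7, 58.5 and 116 CPM in ceAF-1 to ceAF-5. ceAF-5 stood above all other mice, while ceAF-1 and ceAF-3 were the lowest, so the ceAF group was spread to both sides of the DSS group. The SD was 32.0 CPM among ceAF mice and 11.7 among DSS mice, around means of 65.5 and 63.1 (n = 5 mice each). The log2 fold change was 0.054 (standard error 0.288, 95% confidence interval −0.58 to 0.69), with an adjusted p of 0.984 in edgeR's quasi-likelihood test and an exact permutation p of 0.865. It was 0.21 without ceAF-1 and turned negative without ceAF-5 (−0.25) or DSS-1 (−0.031), and the difference of mean log2 CPM was −0.055.

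*Dhcr7* encodes the reductase that turns 7-dehydrocholesterol into cholesterol (ENSMUSG00000058454, chromosome 7, 143376882 to 143402147, forward strand). *Dhcr7* stood at 61.3, 83.6, 78.1, 84.2 and 89.1 CPM in DSS-1 to DSS-5 and 67.6, 76.3, 62.1, 83.9 and 78.8 CPM in ceAF-1 to ceAF-5. DSS-1, ceAF-3 and ceAF-1 were the lowest and DSS-5 the highest, the groups overlapped, and the highest mouse was 1.45 times the lowest. Its log2 fold change was −0.10 (standard error 0.123, 95% confidence interval −0.37 to 0.17), with an adjusted p of 0.915 in edgeR's quasi-likelihood test and an exact permutation p of 0.444. It was −0.18 without DSS-1, −0.043 without DSS-5 and −0.039 without ceAF-3.

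Of the 2 regulators, *Insig1* encodes a sterol-dependent anchor of SCAP and is itself a target of SREBP2 (ENSMUSG00000045294, chromosome 5, 28276361 to 28283660, forward strand). *Insig1* stood at 82.3, 138, 121, 135 and 116 CPM in DSS-1 to DSS-5 and 48.7, 128, 74.6, 102 and 177 CPM in ceAF-1 to ceAF-5. As in *Lss*, ceAF-5 was highest and ceAF-1 and ceAF-3 were lowest, and the DSS mice lay between them. The highest mouse was 3.64 times the lowest, the widest range among the 8 members. The means were 119 ± 22.3 CPM over the 5 DSS mice and 106 ± 49.5 CPM over the 5 ceAF mice (mean ± SD). The log2 fold change was −0.16 (standard error 0.296, 95% confidence interval −0.81 to 0.49), with an adjusted p of 0.952 in edgeR's quasi-likelihood test and an exact permutation p of 0.460. The difference of mean log2 CPM was −0.27, the largest in size of the 8 members on that scale, where *Fdft1* had −0.23, whereas in edgeR's fit *Fdft1* had the largest log2 fold change. Without ceAF-1 the log2 fold change of *Insig1* was 0.024.

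*Srebf2* encodes SREBP2, whose activity is set by cleavage of the protein as well as by its RNA (ENSMUSG00000022463, chromosome 15, 82031382 to 82089580, forward strand). *Srebf2* stood at 201, 244, 209, 241 and 199.9 CPM in DSS-1 to DSS-5 and 180.1, 224, 200.0, 186 and 176 CPM in ceAF-1 to ceAF-5. The 3 lowest mice were ceAF-5, ceAF-1 and ceAF-4 and the 2 highest DSS-2 and DSS-4, yet the groups overlapped, since ceAF-2 came next and lay above 3 of the DSS mice. The means were 219 ± 22.0 CPM over the 5 DSS mice and 193 ± 19.4 CPM over the 5 ceAF mice (mean ± SD). With a log2 fold change of −0.18 (standard error 0.104, 95% confidence interval −0.41 to 0.050), *Srebf2* had the smallest p of the 8 members. The adjusted p was 0.758 in edgeR's quasi-likelihood test. The exact permutation p was 0.0794 on log2 CPM and 0.0476 on log2(FPKM + 1), where the smallest p that 5 mice against 5 allow is 0.00794. ceAF-5 combined the lowest *Srebf2* with the highest *Insig1* and *Lss* of the 10 mice.

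**Figure D2:**
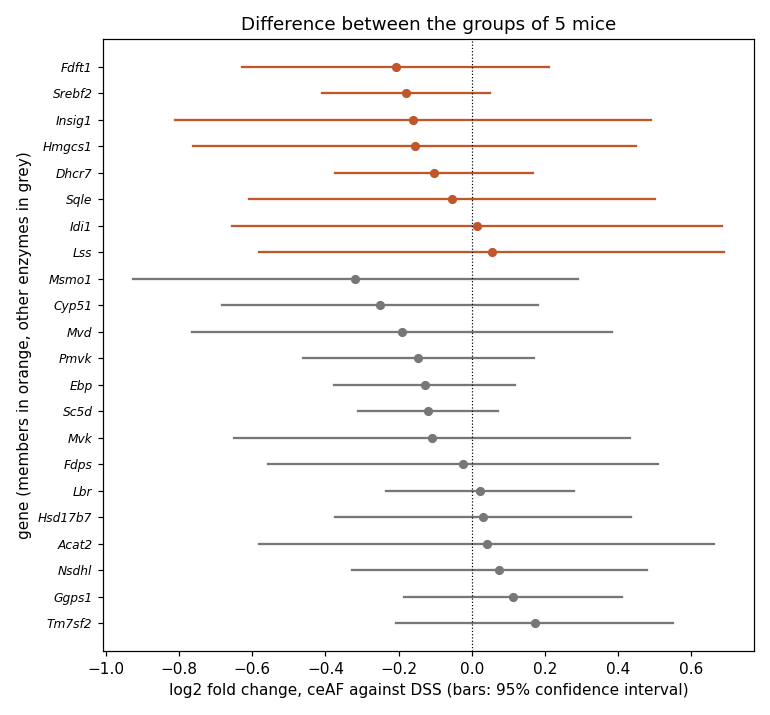
Log2 fold change of the ceAF against the DSS group (horizontal axis) for the 8 members and 14 of the 16 other synthesis enzymes (vertical axis), from edgeR's quasi-likelihood fit. Points are estimates and bars 95% confidence intervals from 5 mice per group, and every bar crosses 0.

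The 95% confidence intervals hold the differences that these mice still allow. For *Srebf2* they ran from 0.753 to 1.04 times the DSS level and for *Dhcr7* from 0.772 to 1.12 times. For *Idi1*, the widest on the log2 scale, they ran from 0.635 to 1.61 times. The spread between mice of a group, as the SD of log2 CPM, was 0.14 for *Srebf2*, 0.19 for *Dhcr7* and 0.33 for *Fdft1*. It was between 0.47 (*Sqle*) and 0.60 (*Idi1*) for the other 5, beside a median of 0.33 over all genes tested.

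Per unit of length, on the deposited FPKM scale, *Hmgcs1* was the most abundant member, at 99.7 ± 31.9 FPKM (mean ± SD over 10 mice), and it was above *Fdft1* in 10 of 10 mice. *Fdft1* followed with 43.0 ± 9.86, *Insig1* with 36.6 ± 12.8 and *Srebf2* with 28.6 ± 3.32 FPKM. *Sqle* had 24.3 ± 6.90, *Idi1* 14.97 ± 4.83, *Dhcr7* 13.2 ± 1.94 and *Lss* 6.005 ± 2.31 FPKM. *Hmgcs1* and *Lss* were each set off from their neighbour in this order by more than the sum of the SDs. The neighbours from *Fdft1* to *Dhcr7* were not, although *Sqle* exceeded *Idi1* in 10 of 10 mice. *Insig1* exceeded *Srebf2* in 7 of 10 mice.

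A mouse that was high in one member tended to be high in the others. The mean over the 8 members of log2 CPM, relative to each gene's mean over the mice, was −0.37, 0.30, 0.016, 0.34 and 0.068 in DSS-1 to DSS-5 and −0.73, 0.29, −0.23, −0.068 and 0.38 in ceAF-1 to ceAF-5. ceAF-1 was the lowest of the 10 mice in 6 members and DSS-1 in 1, while ceAF-5 and DSS-4 had the highest means. ceAF-1 was among the 3 lowest mice in 8 of 8 members and DSS-1 in 6, and DSS-4 was among the 3 highest in 7 of 8.

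All 28 pairs of members had a positive Pearson correlation of log2 CPM over the 10 mice, with a median r of 0.706 and a range of 0.221 to 0.950. After Benjamini-Hochberg adjustment over the 28 pairs, 14 had a permutation p under 0.05 for Pearson's r and 12 for Spearman's rho. All 14 lay among the 15 pairs of *Hmgcs1*, *Idi1*, *Fdft1*, *Sqle*, *Lss* and *Insig1*, and 0 of the 13 pairs with *Dhcr7* or *Srebf2* were under 0.05. This group of 6 was formed from these same pairs, so the split is no separate result. Its edge was narrow. *Dhcr7* and *Insig1* had r = 0.676 (adjusted permutation p = 0.0541), and *Idi1* and *Fdft1*, both inside it, 0.683 (0.0559). With the group means removed, 14 pairs were under 0.05 and the median r was 0.727. Without the 2 mice farthest from the median of the first gene, 7 pairs were under 0.05 and the median r was 0.645. Of the 5 pairs of *Idi1* with the other genes of this group of 6, 0 were then under 0.05, and its r with the members' mean went from 0.821 (rho 0.612) to 0.463 without ceAF-1 and DSS-1. That of *Dhcr7* went from 0.649 (rho 0.576) to 0.428. Without ceAF-1 alone, an alternative chosen after seeing the data, 11 pairs were under 0.05 and the median r was 0.595. All values of a mouse share 1 library and 1 scaling factor.

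The closest pair was *Lss* and *Insig1*, an enzyme and a sensor. Over the 10 mice, Pearson's r was 0.950 (permutation p = 5e-05, adjusted p = 0.000747) and Spearman's rho 0.939 (permutation p = 0.000290, adjusted p = 0.00462), and r was 0.963 without ceAF-5 and ceAF-1. For *Hmgcs1* and *Sqle*, Pearson's r was 0.944 (permutation p = 6e-05, adjusted p = 0.000747) and Spearman's rho 0.903 (permutation p = 0.000770, adjusted p = 0.00719), and r was 0.911 without ceAF-1 and DSS-4. Both relations thus held without the most distant mice. For *Fdft1* and *Idi1*, Pearson's r was 0.683 (permutation p = 0.0319, adjusted p = 0.0559) and Spearman's rho 0.382 (permutation p = 0.280, adjusted p = 0.326), and r was 0.207 without ceAF-1 and DSS-1. That relation rested on those 2 mice. For *Lss* and *Srebf2*, Pearson's r was 0.221 (permutation p = 0.543, adjusted p = 0.543) and Spearman's rho 0.273 (permutation p = 0.451, adjusted p = 0.486), and r was 0.717 without ceAF-5 and ceAF-1 but 0.00340 without ceAF-1 alone.

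The other 16 enzymes of the pathway were examined as a list. All 16 were tested, the ceAF group was lower in 10 and higher in 6, 0 had an unadjusted p under 0.05, and the median log2 fold change was −0.076 (0.0042 without ceAF-1). Values ranged from −0.32 for *Msmo1*, a sterol C4-demethylase (standard error 0.276), to 0.17 for *Tm7sf2*, a sterol C14-reductase (standard error 0.172).

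Most of these enzymes varied between mice as the members did. The Pearson correlation with the members' mean was at least 0.8 in 9 of the 16 enzymes, against 0.54% of the 16309 tested genes outside the lists (88 genes), a limit set with the values in view. It was 0.965 for *Mvk* (mevalonate kinase; rho 0.964), 0.948 for *Cyp51* (lanosterol demethylase; rho 0.964) and 0.940 for *Fdps* (farnesyl diphosphate synthase; rho 0.976) over the 10 mice. Without ceAF-1 and DSS-1, the 2 mice farthest from the median of that mean, r was 0.962, 0.934 and 0.926, and 9 of the 16 were still at 0.8 or above, against 0.981% of the genes outside the lists.

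*Ggps1*, which draws isoprene units away to geranylgeranyl diphosphate, ran opposite to the members, with r = −0.753 (rho −0.636) and −0.670 without ceAF-1 and DSS-1. *Ggps1* stood at 38.7, 41.1, 39.4, 39.3 and 34.6 CPM in DSS-1 to DSS-5 and 52.8, 34.5, 45.0, 44.4 and 32.1 CPM in ceAF-1 to ceAF-5. It was highest in ceAF-1 and lowest in ceAF-5.

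**Figure D3:**
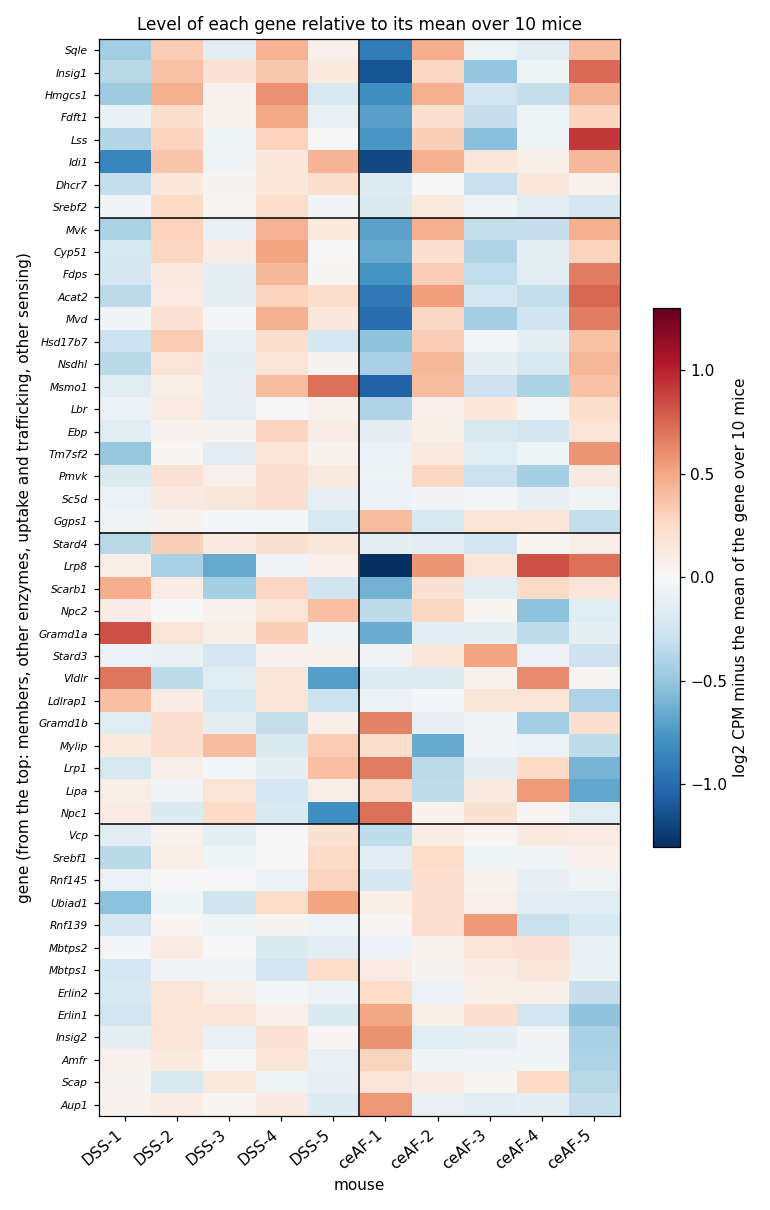
Log2 CPM of each gene minus its mean over 10 mice (colour), with mice from left to right and genes from top to bottom: the 8 members, 14 of the other enzymes, 13 uptake and trafficking genes and 13 other sensing genes, each ordered by Pearson's r with the members' mean. ceAF-1 is low in most members and enzymes but high in *Ggps1*, *Npc1* and *Aup1*.

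Among uptake and trafficking genes, 15 of 16 were tested and *Npc1l1*, the sterol importer, had too few counts. Of the 15, the ceAF group was lower in 7 and higher in 8, and the median log2 fold change was 0.00050. An r of at least 0.8 with the members' mean was found in 2 of the 15, beside 0.54% of the tested genes outside the lists. Without ceAF-1 and DSS-1 it was found in 1, beside 0.981%. In 8 of the 15 r was below 0, and the median r was −0.162. The lysosomal genes *Npc1* (r = −0.655, rho −0.721) and *Lipa* (r = −0.650, rho −0.818), which release cholesterol from ingested lipoproteins, ran opposite to the members. Without ceAF-1 and DSS-1 their r was −0.302 and −0.778, and that of *Npc1* was −0.365 without ceAF-1 alone.

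One gene of this list, *Gramd1a*, passed the unadjusted level of 0.05 and was also the only one of the 15 whose groups did not overlap. It encodes a protein that moves cholesterol from the plasma membrane to the endoplasmic reticulum. *Gramd1a* stood at 55.7, 35.3, 33.2, 39.0 and 30.8 CPM in DSS-1 to DSS-5 and 20.1, 28.4, 29.1, 25.1 and 29.1 CPM in ceAF-1 to ceAF-5. All 5 ceAF mice were below the lowest DSS mouse, and DSS-1 was the highest by a wide margin. The log2 fold change was −0.56 (standard error 0.172, exact permutation p = 0.00794, the smallest possible), but the adjusted p was 0.656 in edgeR's fit. A share of 1 in 15 was close to the 6.93% of all genes tested that passed this level in either direction, and non-overlapping groups occurred in 1.24% of all genes tested.

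The other 13 sterol sensing genes were all tested, with 5 lower and 8 higher after ceAF, 0 at an unadjusted p under 0.05 and a median log2 fold change of 0.022. Of the 13, 0 had an r of at least 0.8 with the members' mean, beside 0.54% of the tested genes outside the lists. An r below 0 was found in 9 of the 13, beside 8298 of the 16309 tested genes outside the lists. The median r of the 13 was −0.254, and −0.0603 without ceAF-1. *Insig2* stood at 54.2, 66.4, 55.3, 67.6 and 60.4 CPM in DSS-1 to DSS-5 and 88.5, 53.0, 54.1, 57.7 and 44.1 CPM in ceAF-1 to ceAF-5. *Insig2*, the paralog of *Insig1*, was highest in ceAF-1 and lowest in ceAF-5, the reverse of *Insig1* in those mice, with r = −0.500 (rho −0.188). Without ceAF-1 alone its r was 0.0866, so the opposite course rested on that mouse, and without ceAF-1 and DSS-1 it was 0.0124. *Scap* had r = −0.592 (rho −0.697) and −0.623 without the same 2 mice. *Srebf1*, the gene of the fatty acid regulator SREBP1, had r = 0.682 (rho 0.746) and 0.441. *Aup1*, a factor of protein degradation at the endoplasmic reticulum, was at 140.0 CPM in ceAF-1 and at most 103 in the other 9 mice.

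Many genes that export cholesterol are driven by LXR, a receptor for oxidized sterols. Of 14 genes of export, storage and LXR 12 were tested, and ceAF mice had less of 10 and more of 2, beside 48.6% of all genes tested that were lower. The mean of log2 CPM after centring each gene was lowest in ceAF-1 (−0.80) and highest in DSS-5 (0.35) and DSS-1 (0.32). It was −0.036 to 0.093 in the other DSS and −0.16 to 0.17 in the other ceAF mice. The median log2 fold change of the 12 was −0.20. Only *Ch25h*, which makes 25-hydroxycholesterol, had an unadjusted p under 0.05 (1 of 12, beside 6.93% of all genes tested), with a log2 fold change of −1.07 (standard error 0.397) at 0.382 to 3.52 CPM. Its adjusted p was 0.656 in edgeR's quasi-likelihood test. The groups overlapped, and 0 of the 12 had an r of at least 0.8 with the members' mean, beside 0.54% of the tested genes outside the lists.

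Fatty acid genes of the SREBP family formed a further list. Of its 14 genes 13 were tested, 8 were lower and 5 higher, 0 had an unadjusted p under 0.05, and the median log2 fold change was −0.028. The median r with the members' mean was 0.638, against 0.857 for the other enzymes and −0.0118 for tested genes outside the lists. *Scd2*, a desaturase, had the lowest log2 fold change of this list (−0.20, standard error 0.408) and r = 0.811 (rho 0.709; 0.476 without ceAF-1 and DSS-1). *Me1*, malic enzyme, had the highest (0.33, standard error 0.337) and r = −0.426 (rho −0.370).

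Outside all lists, the 10 genes most like the members' mean over the 10 mice were *Ccdc3* (r = 0.963), *Aacs* (0.957), *Gm3571* (0.939), *Ddx19b* (0.925), *Hebp2* (0.922), *Tceal8* (0.915), *H2ax* (0.910), *Hdac2* (0.903), *Mmab* (0.902) and *Gmnn* (0.901). *Aacs* encodes acetoacetyl-CoA synthetase, which supplies acetyl units from ketone bodies. *Mmab* encodes an enzyme of cobalamin metabolism and *Gmnn* geminin, a regulator of DNA replication. Without ceAF-1, r was 0.931 for *Ccdc3*, 0.913 for *Aacs* and 0.920 for *Mmab*.

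Markers of other cell states varied over the same mice. All 16 proliferation markers were tested, and all 16 had positive log2 fold changes, with a median of 0.27 and 0 at an unadjusted p under 0.05. *Mki67* was the most abundant, *Aurkb* had the highest log2 fold change (0.47) and *Birc5* the lowest (0.031). Their summed level was 434, 577, 489.7, 517 and 535 CPM in DSS-1 to DSS-5 and 324, 608, 671, 618 and 866 CPM in ceAF-1 to ceAF-5. It was lowest in ceAF-1 and DSS-1 and highest in ceAF-5, and the median r of its genes with the members' mean was 0.638 (0.353 without ceAF-1). Its part in the level of the members was not tested.

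The 9 goblet cell markers were lower in ceAF-1 than in any other mouse as a sum, at 17062, 13151, 12314, 17922 and 11884 CPM in DSS-1 to DSS-5 and 5486, 11751, 12831, 16605 and 11286 CPM in ceAF-1 to ceAF-5. *Muc2* was the most abundant, the ceAF group was lower in 7 and higher in 2, and the median r was 0.539 (−0.210 without ceAF-1). *Tff3* had the lowest log2 fold change (−0.67), the 1 marker of the 9 with an unadjusted p under 0.05, beside 3.67% of all genes tested that were lower at that level. Surface colonocyte markers (10 tested, 5 lower and 5 higher) had their highest sum in ceAF-1, at 25160.0 CPM against 8916 to 17558 in the other 9 mice. The markers did not go 1 way there: *Ceacam1*, the most abundant, was highest of all mice in ceAF-1 (6660.0 CPM) and *Aqp8* was lowest (277 CPM). None of these markers was at 0 in all mice, and their part in the members' level was not tested.

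*Hox* genes, whose order of expression marks position along the gut, differed between pieces as well. For 7 tested anterior *Hox* genes, the mean of log2 CPM after centring each gene was −0.84, 0.94, 1.11, 1.03 and −1.42 in DSS-1 to DSS-5 and 1.61, −1.31, 0.54, −0.44 and −1.21 in ceAF-1 to ceAF-5. The median r of these 7 with the members' mean was −0.320 (0.0126 without ceAF-1), and that of 6 tested posterior genes was 0.236 (0.0853 without ceAF-1). *Hoxb13*, the most abundant of the 6, had 6.18 CPM in ceAF-1, 10.2 in ceAF-4 and 76.3 to 215 in the other 8 mice. Its r with the members' mean was 0.675 (0.347 without ceAF-1). The share of counts on mitochondrial genes was 9.66% in ceAF-1 and 9.74% in ceAF-5, the mice with the lowest and the highest members' mean, and 4.53% to 7.24% in the others. The part of piece position or RNA quality in the result was not tested.

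The remaining lists are given by their counts. Lower in the ceAF group were 9 of 9 neutrophil markers (8 with an unadjusted p under 0.05), 10 of 10 T cell markers (9), 10 of 10 B cell markers (0) and 10 of 10 macrophage markers (3). Over all genes tested 3.67% were lower at that level, and 0 of these markers had an adjusted p under 0.05 (edgeR, Benjamini-Hochberg). The summed neutrophil level was 1881 CPM in DSS-1, the DSS mouse with the lowest members' mean, and 3.59 in ceAF-1. It was 20.9 to 199 in the other DSS and 21.9 to 53.5 in the other ceAF mice. DSS-2 (20.9) and DSS-4 (25.6) were below ceAF-4 (53.5) and ceAF-5 (29.2), whereas DSS-3 (199) and DSS-5 (81.5) were above all ceAF mice. The summed B cell level was 291 CPM in DSS-1 and 10.9 in ceAF-1, and 38.1 to 50.1 in the other DSS and 16.0 to 143 in the other ceAF mice. Its lower level in the ceAF group thus rested on DSS-1 and ceAF-1. The summed macrophage level was 476 CPM in DSS-1 and 73.6 in ceAF-1, and 201 to 273 in the other DSS and 166 to 250 in the other ceAF mice. All 11 smooth muscle and all 11 fibroblast markers were lower and 8 of 10 neuron and glia markers were lower, none with an unadjusted p under 0.05. The summed fibroblast level was highest in DSS-1 (1308 CPM) and lowest in ceAF-1 (248 CPM). It was 649 to 674 CPM in the other DSS mice and 594 to 1005 CPM in the other ceAF mice, so the lower level in the ceAF group rested on DSS-1 and ceAF-1. Both directions occurred in adipocyte (3 of 6 lower), keratinocyte and sebaceous (1 of 4) and hepatocyte markers (1 of 3), again none with an unadjusted p under 0.05. Of 14 tested clock output genes 4 were lower and 10 higher, and *Per2* (log2 fold change 0.50) had an unadjusted p under 0.05. Epithelium markers were lower in 6 and higher in 7 of 13, and their median log2 fold change was 0.020. The 7 anterior *Hox* genes were lower in 2 and higher in 5, and the 6 posterior ones lower in 2 and higher in 4, with *Hoxd13* (log2 fold change 2.91) at an unadjusted p under 0.05. *Per2* was thus 1 of 14 and *Hoxd13* 1 of 6, beside 3.26% of all genes tested that were higher at that level.

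Because members varied together, their promoters were read from RefSeq (GRCm38.p6), as windows from 250 bases before to 50 after the gene start. Of the 8 members 6 were matched, in 8 windows, and *Fdft1* and *Sqle* were not. On both strands, 3 motifs were searched: TCACNCCAC, the core of a sterol regulatory element to which SREBP binds, CCAAT, read by NF-Y, and GGGCGG, read by Sp1. TCACNCCAC was present in 1 of the 8 member windows, that of *Hmgcs1*, and in 1.24% of all 32851 windows. With 1 mismatch allowed it was in 4 of the 8 member windows (*Hmgcs1*, *Dhcr7*, *Insig1* and *Srebf2*) and 24.2% of all windows. CCAAT was in 6 of the 8 member windows and 37.4% of all windows, and GGGCGG in 7 of the 8 and 35.7%. Each of the 6 members had both in at least 1 window. For the 16 other enzymes, 14 windows of 13 genes were matched, with CCAAT in 12, GGGCGG in 11 and TCACNCCAC in 0. With 1 mismatch allowed TCACNCCAC was in 5 of these 14 windows. The other sensing genes had 17 windows of 8 genes, with CCAAT in 7, GGGCGG in 13 and TCACNCCAC in 0, or 6 with 1 mismatch. The uptake and trafficking genes had 12 windows of 9 genes, with CCAAT in 7, GGGCGG in 7 and TCACNCCAC in 1, or 5 with 1 mismatch. The motifs were thus also frequent in lists that mostly did not vary with the members. These are matches of letters in windows, not sites shown to be bound.

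The stretches that hold the motif matches before the gene start are shown for the 4 matched members among the 6 genes that varied together, and for *Srebf2*, which varied with them least. Capitals mark TCACNCCAC, CCAAT and GGGCGG or their reverse complements, which did not overlap, and all 5 are on the forward strand, 5′ to 3′. They lie at chr13:119690104-119690342 (*Hmgcs1*), chr13:8885527-8885605 (*Idi1*), chr10:76531429-76531557 (*Lss*), chr5:28071173-28071301 (*Insig1*) and chr15:82147048-82147250 (*Srebf2*) of GRCm38.p6, within the 250 bases before the annotated gene start.
Hmgcs1: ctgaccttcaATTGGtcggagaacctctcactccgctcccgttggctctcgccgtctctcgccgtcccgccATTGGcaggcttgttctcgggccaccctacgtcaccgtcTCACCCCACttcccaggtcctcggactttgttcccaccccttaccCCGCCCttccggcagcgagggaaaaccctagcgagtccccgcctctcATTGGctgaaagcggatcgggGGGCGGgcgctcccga
Idi1: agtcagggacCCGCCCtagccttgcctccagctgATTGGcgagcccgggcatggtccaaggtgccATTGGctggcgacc
Lss: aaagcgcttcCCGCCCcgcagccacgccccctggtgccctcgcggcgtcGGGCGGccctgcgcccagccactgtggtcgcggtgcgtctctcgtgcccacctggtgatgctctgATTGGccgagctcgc
Insig1: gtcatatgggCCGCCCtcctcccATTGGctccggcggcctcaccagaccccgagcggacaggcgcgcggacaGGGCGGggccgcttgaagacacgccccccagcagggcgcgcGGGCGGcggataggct
Srebf2: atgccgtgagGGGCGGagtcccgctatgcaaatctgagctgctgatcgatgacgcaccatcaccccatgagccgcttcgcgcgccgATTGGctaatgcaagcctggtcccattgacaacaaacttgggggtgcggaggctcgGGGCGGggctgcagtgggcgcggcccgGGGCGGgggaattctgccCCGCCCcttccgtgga
Before the gene start *Hmgcs1* held 3 CCAAT and 2 GGGCGG matches, *Idi1* 2 and 1, *Lss* 1 and 2, *Insig1* 1 and 3, and *Srebf2* 1 and 4.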

How the data were processed

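RNA of mouse colon was counted per gene by the authors, and the submitters' notes name cutadapt 1.9.1 and HISAT2 2.2.1. The counter, genome build and strand setting are not given in the sources used here, so reads of overlapping or antisense genes cannot be told apart. The deposited table holds raw counts per gene and the FPKM that the authors computed from counts, exonic length and library total. A length is also listed per gene and is no sample's value.

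Genes were kept by filterByExpr (minimum count of 10), scaled by TMM and compared with edgeR 4.0.16's quasi-likelihood test in R 4.3.3, two-sided, with Benjamini-Hochberg adjustment. log2 CPM used a prior count of 1. Confidence intervals were formed from the standard error. Exact permutation p-values came from every assignment of 5 of 10 mice, two-sided, and correlations used 100000 permutations, or all orders of 8 or 9 mice. Alternatives were upper quartile scaling, DESeq2 1.42.0, other filters, limma-trend 3.58.1 on FPKM, the replicate number as a block and leaving out each mouse. Fits were tested on simulated data. Figures used matplotlib 3.10.9.

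The members and lists were chosen with earlier results of these data known. Genes named were the members, tested genes of the enzyme, sensing and uptake lists, the extremes or most abundant genes of other lists, and the 10 genes most like the members' mean. Some list genes enter the counts and medians but are not reported here.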

Additional observations from a re-analysis of the deposited data

Results flagged for a closer look

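Within each group, the distance on the log2 CPM scale of the highest or lowest of the 5 mice from the next mouse was compared with the whole range of the group. This was done for 48 of the tested genes of the member, enzyme, sensing and uptake lists, not for all of them. Of 96 such comparisons 4 exceeded the critical value of 0.71, where chance gives about 1 in 20, or 4.8.

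Of the 4, 3 came from ceAF-1. That mouse lay far below the other ceAF mice in *Idi1* (gap over range 0.772), at 21.7 CPM against 52.3 to 67.8. It did so in *Vcp* (0.763), at 219.6 against 279 to 300.5 CPM. In *Aup1* (0.749) it lay far above them, at 140.0 against 76.5 to 89.0 CPM. DSS-5 was far above the other DSS mice in *Rnf145* (0.793), at 142 against 110.3 to 116 CPM. Genes of 1 mouse share a library, so these are not independent.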

How the results depend on the processing

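At an unadjusted p under 0.05 there were 0 members under each of the 18 alternative fits, and the smallest unadjusted p in those 144 values was 0.0511. The median log2 fold change of the members ranged from −0.21 to 0.0068 over the 18 fits, and that of the other enzymes from −0.15 to 0.0042, in both cases moving by less than the SD between mice. *Dhcr7*, *Fdft1*, *Hmgcs1* and *Srebf2* were lower in the ceAF group in all 18.

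The number of genes called over the whole table was 0 except with DESeq2 (25), with limma-trend on log2(FPKM + 1) over all genes with an FPKM (1) and without DSS-5 (3: *Ccl5*, *Cd3g* and *Lat*, named after their values were seen). Leaving out 1 mouse gave 0 to 3. The cause was not tested.

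*Idi1* changed sign with limma-trend on log2(FPKM + 1) (−0.038, with either filter) and log2(FPKM + 0.1) (−0.048), with the replicate block (−0.022) and when 1 mouse was left out, where it ranged from −0.14 to 0.21. *Lss* changed sign with log2(FPKM + 1) (−0.050, either filter), log2(FPKM + 0.1) (−0.077) and the replicate block (−0.060), and ranged from −0.25 to 0.21 with 1 mouse left out. With 1 mouse left out *Sqle* ranged from −0.17 to 0.11 and *Insig1* from −0.43 to 0.024. The cause was not tested.

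Over genes, the deviations of mice with the same number from their group had r of −0.249, −0.136, −0.0043, −0.159 and 0.286 for numbers 1 to 5, and the numbers were not read as pairs. With the replicate block 0 genes were called, as without it.

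Of the pairs of members, 14 were under 0.05 after adjustment, 7 without the 2 farthest mice, where fewer mice enter, 14 with group means removed and 11 without ceAF-1, which was chosen after seeing the data. Members with the sterol element core went from 1 to 4 with 1 mismatch allowed, by the looser match itself. The exact permutation p of *Srebf2* passed under 0.05 (0.0476) on log2(FPKM + 1) and did not with a prior count of 0.25. Depth limits genes with fewer counts than the members, which had at least 285 in each mouse.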

Other observations

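RNA was measured, and neither cholesterol nor cleaved SREBP2 was analysed here. With 5 mice per group, the printed intervals hold the differences that these data still allow, and an adjusted p that misses the threshold does not show that the groups were alike. The relations across mice concern 10 pieces of bulk tissue that also differed in *Hox* genes and in immune and proliferation markers, and these cannot be told apart from the members' own level. Positions from the table are of an unnamed build and were not compared with the promoter positions.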
